A study of Mus musculus with 24 samples.

Results

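The mouse oligoadenylate synthetase genes *Oas1a*, *Oas1b*, *Oas1c*, *Oas1g*, *Oas2* and *Oas3* and the synthetase-like genes *Oasl1* and *Oasl2* were followed by RNA-seq in mouse embryonic fibroblasts (MEFs) that lack different sets of histone H3 lysine 9 methyltransferases (H3K9 KMTs). The genes were chosen by symbol. They are 8 of the 47937 genes in the count table, each has 1 row, and all 8 passed the filter on low counts. That filter was applied over all conditions together, so a gene low in WT could pass it through conditions where it was high. Each of the 8 had a higher mean than WT in every mutant condition, except *Oas1a* in *E2*. Libraries overlapped WT for *Oas1a*, *Oas1b* and *Oas1c* in *E2* and for *Oas1c* in *6KO2*. For 7 of the genes, all but *Oasl1*, the level was highest in *6KO1* and *E1E2 G9Gl*.

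Oligoadenylate synthetases bind double-stranded RNA and then join ATP into short adenylate chains. These chains act as a messenger inside the cell and set off an antiviral response. The genes are interferon-stimulated: the transcription factor complex ISGF3, which holds STAT2 and IRF9, binds a promoter element with repeated GAAA and drives them, and fibroblasts are among the cells that respond this way.

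All cells carried a conditional *Eset1* (*Setdb1*) allele and a Cre recombinase that is active in the presence of 4-hydroxytamoxifen (4-OHT, 1 µM). There were 3 biological replicates in each of 8 conditions, 24 libraries in all. WT is the parental clone without 4-OHT, and *E1* is the same clone after 4-OHT, so deletion of *Eset1* and exposure to 4-OHT cannot be told apart in that pair. One series of clones led from *E1 S1S2*, which also lacks *Suv39h1* and *Suv39h2*, to *6KO1*, which in addition lacks *Eset2* (*Setdb2*), *G9a* (*Ehmt2*) and *Glp* (*Ehmt1*). The other series started from an *Eset2* frameshift clone, sequenced without 4-OHT (*E2*) and with it (*E1E2*). It went on to *E1E2 G9Gl*, which also lacks *G9a* and *Glp*, and then to *6KO2*, which lacks the same 6 genes as *6KO1*. All these conditions except WT and *E2* were treated with 4-OHT. Each edited genotype is 1 CRISPR/Cas9 clone, with *E2* and *E1E2* from the same one, and after editing the inducible Cre was introduced again under puromycin selection, so genotype and clone cannot be told apart.

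The libraries held between 24736829 and 37419071 counts, of which 19541909 to 31489070 fell on genes. *Setdb1* RNA, counted over the whole gene and so also outside the deleted exons, was lower than WT by 0.57 on the log2 scale in *E1*. It did not separate the libraries labelled *E2* from those labelled *E1E2* (log2 difference 0.01 ± 0.08, SE). Both lay below WT, with *Setdb1* at -0.31 ± 0.08 in *E2* and -0.31 ± 0.08 in *E1E2*. *Suv39h2* RNA was not lower in the libraries labelled *E1 S1S2* (log2 fold change 0.76 against WT), while *Suv39h1* was at -1.14 there. *Setdb2* was at -1.36 in *E2*, and *Ehmt1* and *Ehmt2* were at -1.40 and -1.69 in *E1E2 G9Gl*. There *Suv39h2* and *Setdb1* were also lower than WT, at -1.47 and -1.19. From *E1E2 G9Gl* to *6KO2*, *Suv39h1* was at -0.34, but *Suv39h2* was at 0.51 and *Ehmt2* at 1.12. Against WT, *Ehmt1* and *Ehmt2* were at -0.95 and -0.56 in *6KO2*, and *Suv39h1* and *Suv39h2* were at -1.73 and 0.14 in *6KO1*. RNA levels thus did not show every labelled mutation. WT replicate 2 stood apart from the other WT libraries over all genes (chi-square per gene 57 to 68.3, against 5.04 between the others). In *E2* and in *6KO2*, replicate 2 was the lowest of its condition in all 8 *Oas* and *Oasl* genes, with a summed level 0.583 and 0.648 times that of the other libraries of its condition. The summed level of 10 fibroblast markers was 171148 to 215075 normalized counts in WT, 96913 to 108757 in *6KO1* and 224032 to 241800 in *E1E2 G9Gl*. Its members did not move together. In *E1E2 G9Gl* the mean of *Col3a1* was 48619.5 against 18076 in WT, and that of *Pdgfra* was 13.7 against 129. *Pdgfra* was at 3.12 in *6KO1*. *Thy1* was close to 0 in *E1 S1S2*, *6KO1* and *6KO2*. It was at 27.0 in *E2*, 49.3 in *E1E2* and 412 in *E1E2 G9Gl*, against 199 in WT.

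In the GRCm38 annotation the 8 genes lie in a pair of stretches of chromosome 5. *Oasl2* and *Oasl1* occupy chr5:114896936-114937915, and *Oas2*, *Oas3*, *Oas1c*, *Oas1b*, *Oas1g* and *Oas1a* occupy chr5:120730333-120907521. Because the genes moved together, their promoters were searched on both strands for the core that ISGF3 recognises, written as GAAA, any 2 bases and GAAA again. Read on the other strand this is TTTC, any 2 bases and TTTC. The window ran from 250 bases before to 50 bases after the RefSeq start site. Of the 6 genes with a RefSeq promoter entry, 4 held the pattern, against 3.99% of all 27025 genes with an entry (1079 genes). Counted by promoter, the share was 3.43% of 32817 (1126 promoters). *Oas1b* and *Oas2* had no entry. The stretches of 30 bases below are from RefSeq on GRCm38.p6, all on the minus strand, with the pattern in capitals, and are shown because they are the shared letters nearest to the start sites.
Oas1a (chr5:120907523-120907552): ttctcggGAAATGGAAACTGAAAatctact
Oas1g (chr5:120887609-120887638): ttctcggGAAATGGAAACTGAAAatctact
Oas1c (chr5:120812606-120812635): atgggacTTTCAGTTTCCATTTCccgggaa
Oas3 (chr5:120777715-120777744): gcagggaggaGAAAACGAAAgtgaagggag

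In *Oas1a*, *Oas1g* and *Oas1c* the capitals are 2 overlapping copies of the pattern, and in *Oas3* they are 1 copy. The window was identical in *Oas1a* and *Oas1g*, so these are not separate matches. The *Oas1c* capitals are those of *Oas1a* and *Oas1g* read on the other strand. They begin at -114 from the *Oas1c* start site, against -20 in *Oas1a* and -18 in *Oas1g*. The *Oas1c* window ends at the first annotated base of *Oas1b*, at 120812635, since these genes are read away from each other. So these letters also lie directly before *Oas1b*, which had no entry of its own. The *Oasl1* and *Oasl2* windows did not hold these letters. A match describes the sequence and is not a measured binding site.

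*Oas1a* and *Oas1g* encode closely related short synthetases and cannot be fully separated here. Their transcripts were 97.5% identical over 1860 aligned bases, and 47.6% of the 75-base words of *Oas1a* also occur in *Oas1g*. Their individual counts are therefore uncertain, while 0 words were shared with other genes by *Oas1b*, *Oas2*, *Oas3*, *Oasl1* or *Oasl2*. *Oas1c* shares 6.75% of its words, mostly with the antisense gene *Gm43069*, which overlaps its exons by 227 bases. *Oasl1* overlaps the antisense gene *Gm13822* by 38 bases.

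**Figure D1:**
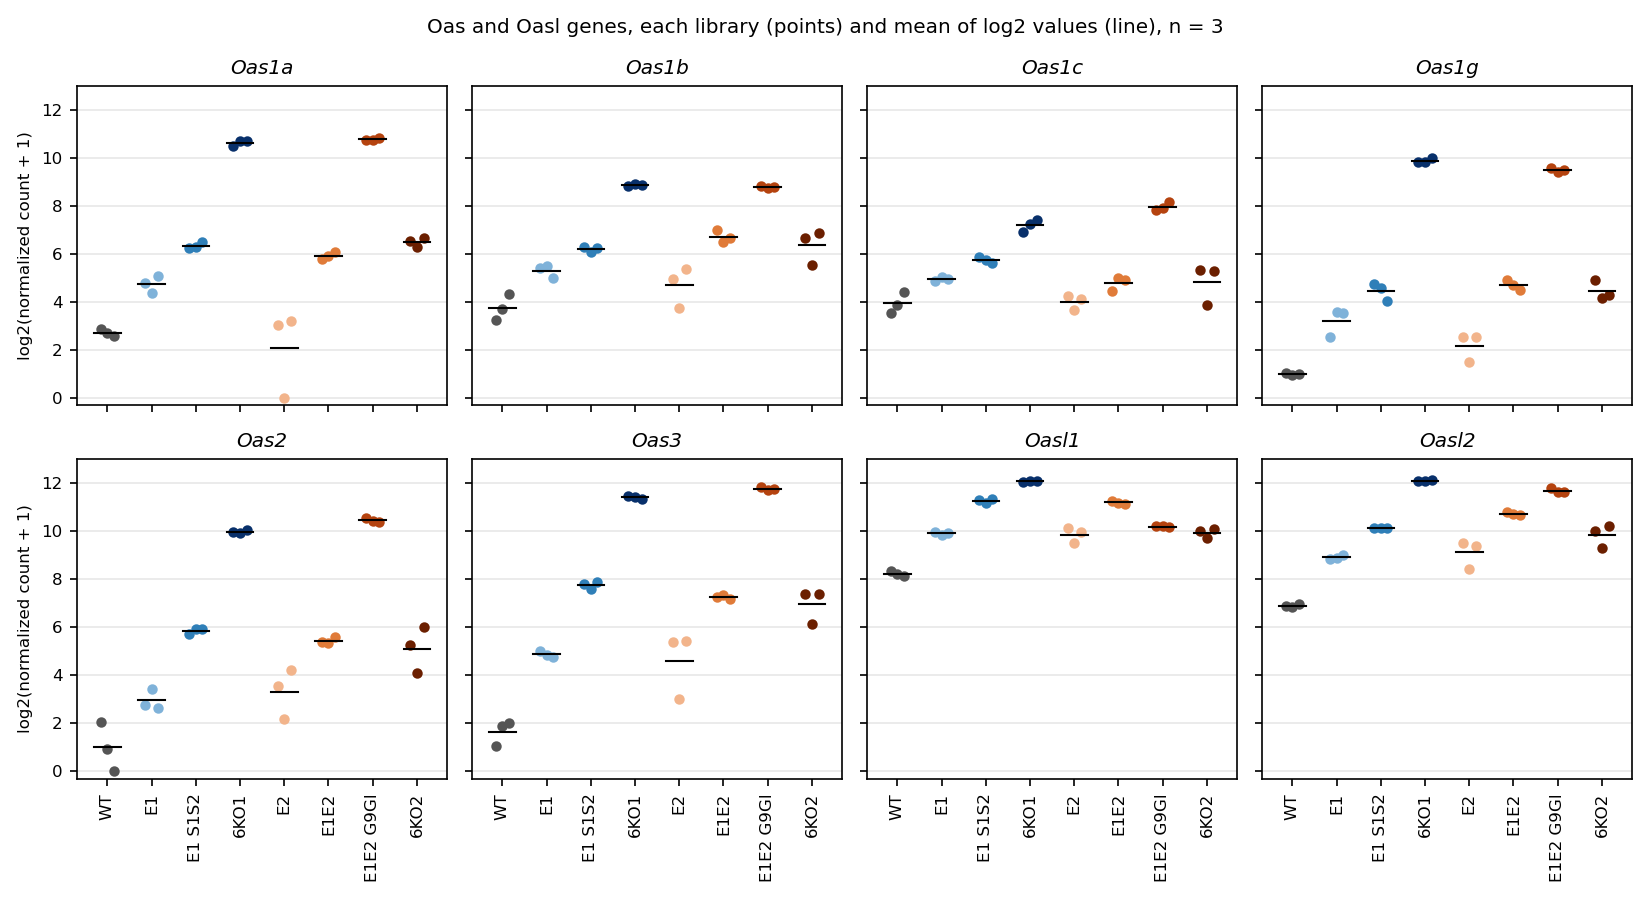
Normalized counts of the 8 genes on the log2(value + 1) scale in each condition, with 1 point per library and a line at the mean of the log2 values (n = 3). *6KO1* and *E1E2 G9Gl* stand highest in 7 genes, whereas in *Oasl1* the *E1E2 G9Gl* libraries lie below those of *E1 S1S2* and *E1E2*.

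The values in the following are counts scaled to a common library size (normalized counts). *Oas1a* was at 6.39, 5.48 and 5.02 in the WT libraries and at 26.4, 19.7 and 32.5 in *E1*. It reached 74.4, 77.0 and 89.0 in *E1 S1S2*, and 1463, 1652 and 1665 in *6KO1*. In the other series it was at 7.14, 0 and 8.32 in *E2*, at 54.2, 59.8 and 66.2 in *E1E2*, at 1736, 1719 and 1822 in *E1E2 G9Gl*, and at 92.1, 76.6 and 99.4 in *6KO2*. Only *E2* overlapped WT, and *6KO1* and *E1E2 G9Gl* stood apart from all other conditions. The fold change over WT was 8.12 ± 0.21 (log2, SE, edgeR adjusted p = 1.8e-19) in *6KO1* and 8.26 ± 0.21 (adjusted p = 1.1e-19) in *E1E2 G9Gl*.

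*Oas1g* had 3 counts in WT in all, 1 in each library. Its normalized counts were 899, 908 and 1013 in *6KO1* and 764, 685 and 721 in *E1E2 G9Gl*, but 29.0, 17.1 and 18.8 in *6KO2*. It was at 4.88, 10.9 and 10.6 in *E1*, at 25.8, 22.6 and 15.3 in *E1 S1S2*, at 4.76, 1.79 and 4.75 in *E2* and at 29.6, 25.5 and 21.7 in *E1E2*, all above WT. No library outside *6KO1* and *E1E2 G9Gl* exceeded 29.6. The ratio of the summed counts to WT was 947 in *6KO1* (exact 95% interval 324 to 4593, counting error only) and 22.1 in *6KO2* (7.20 to 110.0).

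*Oas1b*, whose protein restricts flaviviruses in some strains and which is annotated as a polymorphic pseudogene, was at 8.52, 11.9 and 19.1 in WT. It was at 457, 482 and 467 in *6KO1* and at 461, 430 and 442 in *E1E2 G9Gl*, and these libraries overlapped each other. In *6KO2* it was at 101, 45.7 and 116, above every WT library but below both. The other lines lay between, at 42.0, 44.4 and 30.8 in *E1*, at 76.7, 66.1 and 74.6 in *E1 S1S2* and at 126, 88.6 and 100.3 in *E1E2*, whereas *E2*, at 29.7, 12.6 and 40.4, overlapped WT in replicate 2. *Oas1c* was at 10.7, 13.7 and 20.1 in WT, at 120, 151 and 168 in *6KO1* and at 227, 242 and 284 in *E1E2 G9Gl*. Its *6KO2* libraries, at 39.3, 13.7 and 38.7, overlapped WT in replicate 2. It was at 28.3, 31.6 and 29.9 in *E1*, at 57.1, 53.4 and 48.6 in *E1 S1S2*, at 17.8, 11.7 and 16.6 in *E2* and at 20.7, 31.0 and 28.9 in *E1E2*, and of these only *E2* overlapped WT. The *Oas1c* call in *6KO2* (log2 fold change 1.05 ± 0.32, adjusted p = 0.00589) was lost without WT replicate 1 or 2, without *6KO2* replicate 1 or 3, and when only *6KO2* and WT were fitted, with adjusted p between 0.0211 and 0.0608.

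*Oas2* and *Oas3* encode the larger synthetases, with *Oas3* the largest of the family. Both were near the detection limit in WT. *Oas2* was at 3.20, 0.913 and 0 in WT, at 997, 991 and 1055 in *6KO1*, and at 1512, 1392 and 1335 in *E1E2 G9Gl*. *Oas3* was at 1.07, 2.74 and 3.01 in WT, at 2855, 2764 and 2639 in *6KO1*, and at 3724, 3382 and 3493 in *E1E2 G9Gl*. In both genes *E1E2 G9Gl* was above *6KO1* in every library. The other lines stood between these and WT. *Oas2* was at 5.86, 9.87 and 5.28 in *E1*, at 52.4, 60.7 and 59.4 in *E1 S1S2*, at 10.7, 3.59 and 17.8 in *E2*, and at 40.4, 39.9 and 47.5 in *E1E2*. *Oas3* was at 31.3, 27.6 and 26.4 in *E1*, at 40.4, 7.17 and 42.8 in *E2*, and at 154, 161 and 144 in *E1E2*, so that *E2* replicate 2 was the library nearest to WT. *6KO2* was at 37.2, 16.0 and 63.0 for *Oas2* and at 167, 69.7 and 168 for *Oas3*, below *E1 S1S2* for *Oas3* (225, 190 and 238).

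The synthetase-like genes were the ones already expressed in WT. *Oasl1*, which lacks synthetase activity and restrains translation of *Irf7* mRNA, was at 327, 294 and 285 in WT. It was at 992, 933 and 981 in *E1*, at 2519, 2344 and 2607 in *E1 S1S2*, and at 4302, 4447 and 4337 in *6KO1*. It was at 1138, 721 and 992 in *E2*, at 2483, 2342 and 2283 in *E1E2*, at 1188, 1183 and 1162 in *E1E2 G9Gl*, and at 1028, 839 and 1088 in *6KO2*. So *Oasl1* was lower in *E1E2 G9Gl* than in *E1E2* in every library, while the 6 *Oas* genes were higher there. *Oasl2*, which keeps synthetase activity, was at 116, 114 and 125 in WT, at 4379, 4362 and 4519 in *6KO1*, at 3564, 3208 and 3215 in *E1E2 G9Gl*, and at 1031, 640.2 and 1185 in *6KO2*. It was at 461, 478 and 512 in *E1*, at 1141, 1138 and 1114 in *E1 S1S2*, at 733, 345 and 678 in *E2*, and at 1774, 1679.6 and 1664 in *E1E2*, so every mutant library was above WT.

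**Figure D2:**
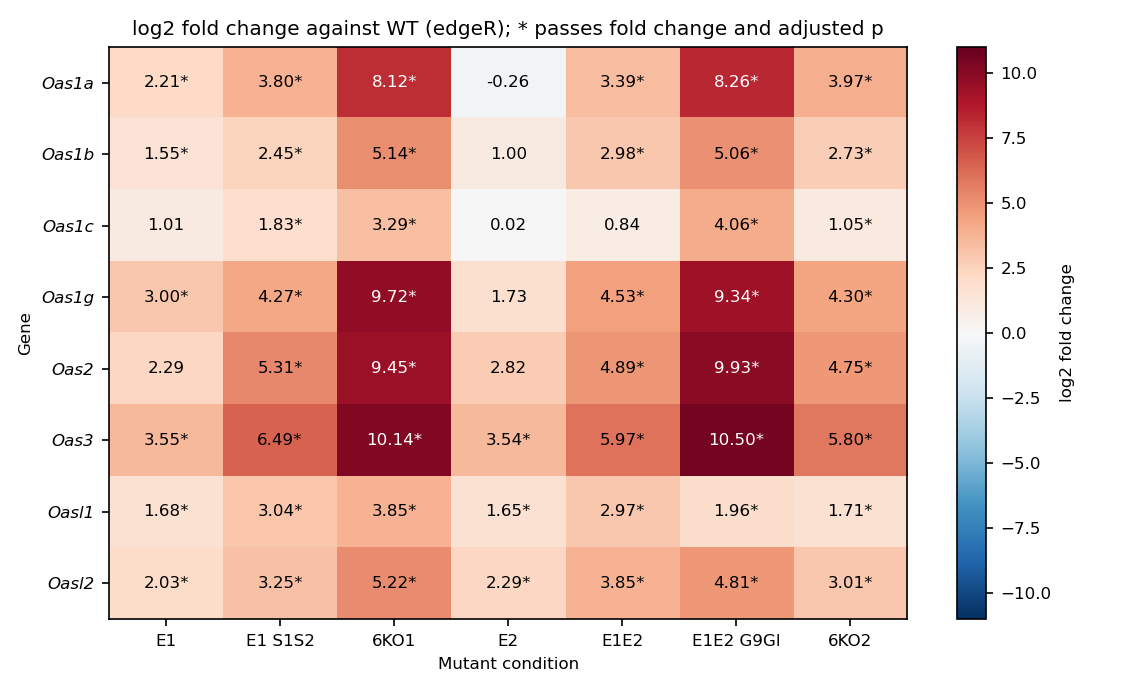
log2 fold change of each gene (rows) against WT in each mutant condition (columns), from edgeR over all libraries. A star marks a log2 fold change of at least 1 with an adjusted p of at most 0.01. *Oas3* had the largest value in every column, up to 10.50 in *E1E2 G9Gl*, and *E2* holds the fewest stars, 3.

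A gene was called changed when its absolute log2 fold change was at least 1 and its edgeR adjusted p, over 18565 genes, at most 0.01. The 7 comparisons against WT share the same 3 WT libraries. Of the 8 genes, 6 rose in *E1*, where 2.27% of all genes rose. All 8 rose in the later lines of that series, beside 6.65% of all genes in *E1 S1S2* and 20.6% in *6KO1*. In the *Eset2* series 3 of the 8 rose in *E2* (2.9% of all genes), 7 after 4-OHT (*E1E2*, 5.51%) and all 8 in *E1E2 G9Gl* (16.8%) and *6KO2* (15.3%). Every library lay above every WT library for 8 genes in *E1* (14.3% of all genes), *E1 S1S2* (26.5%), *6KO1* (39.1%), *E1E2* (24.2%) and *E1E2 G9Gl* (35.4%), for 5 genes in *E2* (17.6%) and for 7 in *6KO2* (34.7%). The median log2 fold change of the 8 genes went from 2.12 (*E1*) through 3.53 (*E1 S1S2*) to 6.67 (*6KO1*). In the other series it was 1.69 (*E2*), 3.62 (*E1E2*), 6.66 (*E1E2 G9Gl*) and 3.49 (*6KO2*). The median of all genes lay between -0.01 and 0.06. In bulk RNA a higher level per cell and a larger share of expressing cells cannot be told apart.

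The 2 genes not called in *E1* were *Oas1c* (log2 fold change 1.01, adjusted p = 0.0226) and *Oas2* (2.29, adjusted p = 0.0768), and both lay above every WT library. The *Oas1b* call in *E1* (1.55, adjusted p = 0.00498) was lost without any of 4 single libraries, WT replicate 1 or 2 or *E1* replicate 1 or 2, with adjusted p up to 0.0237. In *E2*, *Oas3* (3.54 ± 0.73, adjusted p = 5.2e-04), *Oasl1* (1.65 ± 0.12, adjusted p = 1.6e-10) and *Oasl2* (2.29 ± 0.22, adjusted p = 2.4e-08) rose without 4-OHT. *Setdb1* RNA was itself lower than WT in the *E2* libraries, at -0.31 ± 0.08. The *Oas3* call in *E2* and the *Oas1g* call in *E1* rest on a filter passed through other conditions. *Oas1a* in *E2* was different from these genes. It did not rise, with 7.14, 0 and 8.32 normalized counts in *E2* against 5.02 to 6.39 in WT. Without *E2* replicate 2, 5 genes were called in *E2*, with *Oas1b* and *Oas2* added.

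Treatment of the *Eset2* clone with 4-OHT was followed by a rise of 7 genes (*E1E2* against *E2*, where 2.32% of all genes rose), and *Oas1c* stayed under the threshold (0.82, adjusted p = 0.084). *Oas1a* rose most, by 3.65 ± 0.33 on the log2 scale (adjusted p = 3.8e-08). Whether the 4-OHT response differed between the *Eset2* clone and the parental clone was tested as an interaction. It was called for 0 of the 8 genes by edgeR (2.01% of all genes were called higher and 1.41% lower) and 0 by DESeq2, with 2 genes at an unadjusted p under 0.05 in each. The largest difference was 1.44 ± 0.61 for *Oas1a* (adjusted p = 0.126), and these values do not show that the responses were alike.

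In the first series, 6 genes rose from *E1* to *E1 S1S2* (4.31% of all genes), with *Oas2* (3.02 ± 0.39) and *Oas3* (2.94 ± 0.29) ahead of *Oasl2* (1.23 ± 0.18). The *Oas1g* rise, of 1.27, was 0.99 without *E1* replicate 1 and then under the threshold. From *E1 S1S2* to *6KO1*, 7 genes rose (16.3% of all genes), *Oas1g* by 5.45 ± 0.15 and *Oas1a* by 4.31 ± 0.14. *Oasl1* was higher by 0.81 ± 0.10 (adjusted p = 3.6e-07), which is under the fold change asked for.

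In the second series, 6 genes rose from *E1E2* to *E1E2 G9Gl* (14.8% of all genes) and 1 fell (6.78% fell). *Oas2* rose by 5.05 ± 0.22 and *Oas1a* by 4.87 ± 0.15, and *Oasl2* was higher by 0.96 ± 0.17. *Oasl1* fell by 1.01 on the log2 scale (SE 0.11, adjusted p = 1.7e-08), just past the threshold, and DESeq2 or RLE scaling gave -0.98. From *E1E2 G9Gl* to *6KO2*, 7 genes fell (9.12% of all genes), among them *Oas2* by 5.18 (SE 0.22) and *Oas1g* by 5.04 (SE 0.16). *Oasl1* differed by -0.26 ± 0.11 (adjusted p = 0.0477). All 8 genes were below every *E1E2 G9Gl* library in all *6KO2* libraries (33.2% of all genes were).

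**Figure D3:**
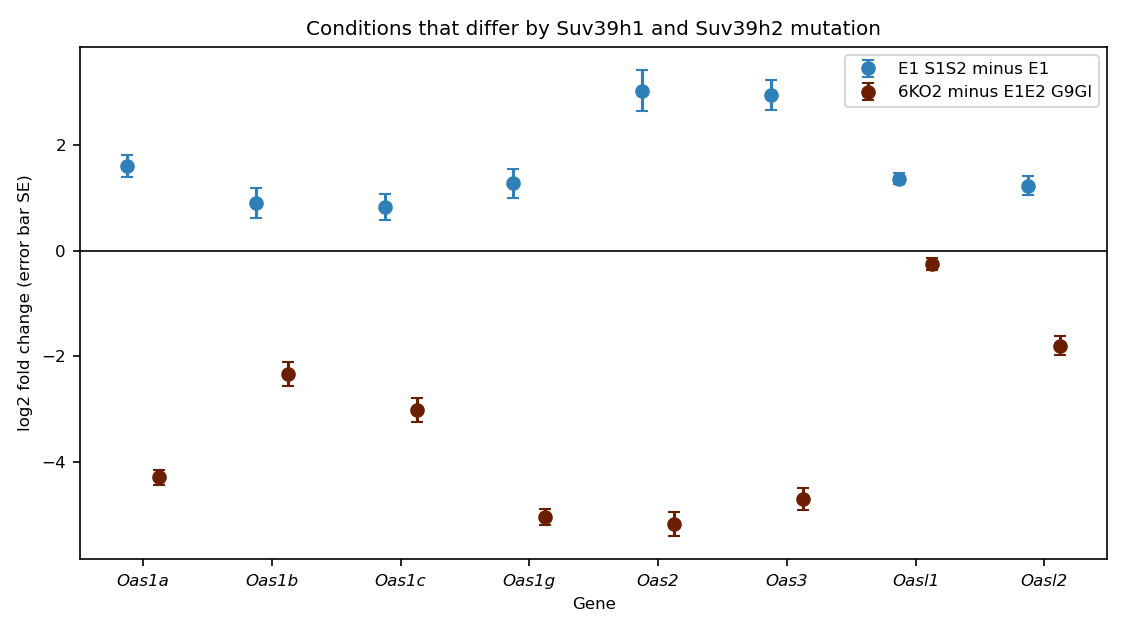
log2 fold change with SE for the pairs of conditions that differ by *Suv39h1* and *Suv39h2* mutation, *E1 S1S2* against *E1* (blue) and *6KO2* against *E1E2 G9Gl* (brown). All blue points lie above 0 (0.83 to 3.02) and all brown points below 0 (-5.18 to -0.26).

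The *Suv39h* mutations were thus accompanied by opposite differences. The difference of these differences, a comparison chosen after the values were seen, was called lower for all 8 genes (8.76% of all genes), from -1.62 ± 0.15 for *Oasl1* to -8.20 ± 0.42 for *Oas2*. Each side compares clones that were isolated separately.

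*6KO1* and *6KO2* lack the same 6 enzymes, yet all 8 genes were higher in *6KO1* (9.77% of all genes were). The difference ran from 2.15 ± 0.11 for *Oasl1* to 5.42 ± 0.16 for *Oas1g*, and each gene lay above every *6KO2* library in every *6KO1* library (35.3% of all genes did). The count stayed at 8 without *6KO2* replicate 2 and *E2* replicate 2.

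**Figure D4:**
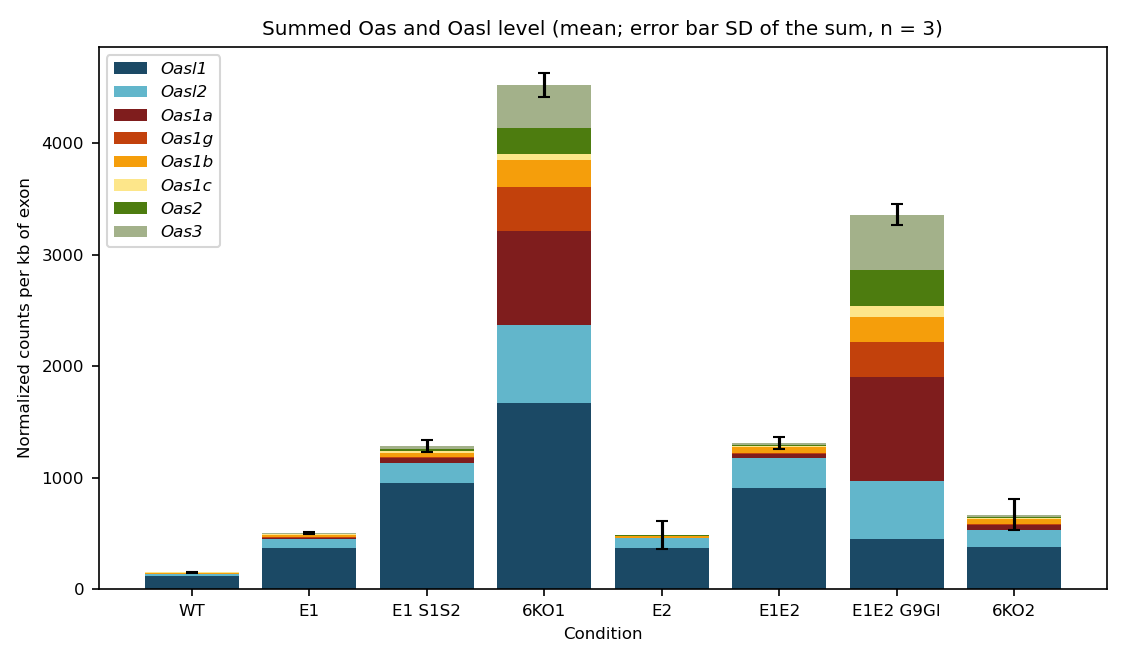
Summed level of the 8 genes in normalized counts per kb of exon, stacked by gene as means of 3 libraries, with the SD of the sum. The sum was 151 in WT, 4527 in *6KO1* and 3361 in *E1E2 G9Gl*, and the *Oasl1* and *Oasl2* share fell to 52.3% and 29.0% in the latter conditions.

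Per kb of exon, a scale on which genes can be compared only roughly, *Oasl1* was the highest of the 8 in WT at 116 ± 8.50 (SD, n = 3). *Oasl2* followed at 18.6 ± 0.947, and *Oas2* and *Oas3* were at 0.308 and 0.321. The ranks depend on the length taken, and those of *Oas1a* and *Oas1g* also on how their shared words were counted. In *6KO1* the order was *Oasl1* (1673), *Oas1a* (845) and *Oasl2* (693). With the longest transcript as length it was *Oasl1* (2000), *Oasl2* (1415) and *Oas1a* (845). In *E1E2 G9Gl*, *Oas1a* led at 933 ± 29.4, before *Oasl2* (522 ± 32.0), *Oas3* (499.8 ± 24.7) and *Oasl1* (451 ± 5.28). With the longest transcript as length, *Oasl2* was first there at 1066. The summed level per kb was 151 ± 5.49 in WT and went to 503 ± 11.7 (*E1*), 1286 ± 56.2 (*E1 S1S2*) and 4527 ± 107 (*6KO1*) in the first series. In the second it was 488 ± 127 (*E2*), 1314 ± 53.3 (*E1E2*), 3361 ± 92.4 (*E1E2 G9Gl*) and 668 ± 138 (*6KO2*). *Oasl1* and *Oasl2* held 88.9% of that sum in WT, 88.0% in *E1 S1S2* and 79.2% in *6KO2*, against 52.3% ± 0.767 in *6KO1* and 29.0% in *E1E2 G9Gl*. With the longest transcript as length, the share was 90.7% in WT, 57.9% in *6KO1* and 36.8% in *E1E2 G9Gl*.

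Over the 24 libraries, which share clones within a condition, the log2 level of *Oasl1* was the least like the others (Pearson r 0.55 to 0.85 with each), and the other genes had r between 0.82 and 0.98 among themselves. The genes outside the family with the most similar pattern to the mean of the 8 were *Apol9a* (r = 0.994), *Apol9b* (0.986), *Ifih1* (0.976), *Usp18* (0.976), *Ddx60* (0.972), *Rtp4* (0.969), *Irf7*, *Gm45193*, *Trim14* and *Ifit3b* (each 0.967). *Apol9a* had mean normalized counts of 257 in WT, 1058 in *6KO2*, 4727 in *E1E2 G9Gl* and 5230.4 in *6KO1*.

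*Enpp1*, *Abce1*, *Akap7* and *Pde12* were followed as other genes tied to the adenylate chains. *Enpp1*, whose ectoenzyme can degrade these chains, fell by 4.32 on the log2 scale in *6KO1* against WT (adjusted p = 5.8e-09), and *Abce1* fell by 1.26 (adjusted p = 1.1e-11). *Akap7* and *Pde12*, whose products include phosphodiesterases of the chains, were at -0.02 and -0.39 without a call. In *E1E2 G9Gl*, *Akap7* rose by 1.12 (adjusted p = 8.9e-12) and *Enpp1* fell by 3.58 (adjusted p = 8.5e-08), while *Abce1* (-0.82) and *Pde12* (-0.71) were not called. *Enpp1* was called lower than WT in all 7 mutants, from -1.07 in *E1* to -4.32 in *6KO1*, and was at -2.74 in *E2*.

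The genes of other *Oas1* copies stayed near 0 and were not tested. *Oas1d* had 35 counts in *6KO1* and 13 in *E1E2 G9Gl* against 0 in WT. With WT set to a floor of 3 counts over the condition, this was 10.7-fold and 5.12-fold higher, without an allowance for counting error. Among the interferon ligands, none of 8 passed the filter. *Ifnb1*, the fibroblast interferon, had 0 counts in WT, *E1*, *E1 S1S2* and *E2*. It had 15 counts in *6KO1* (2, 6 and 7 in the libraries, 4.58-fold over WT with the same floor). The count was 7 in *E1E2*, 7 in *6KO2* and 4 in *E1E2 G9Gl*.

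**Figure D5:**
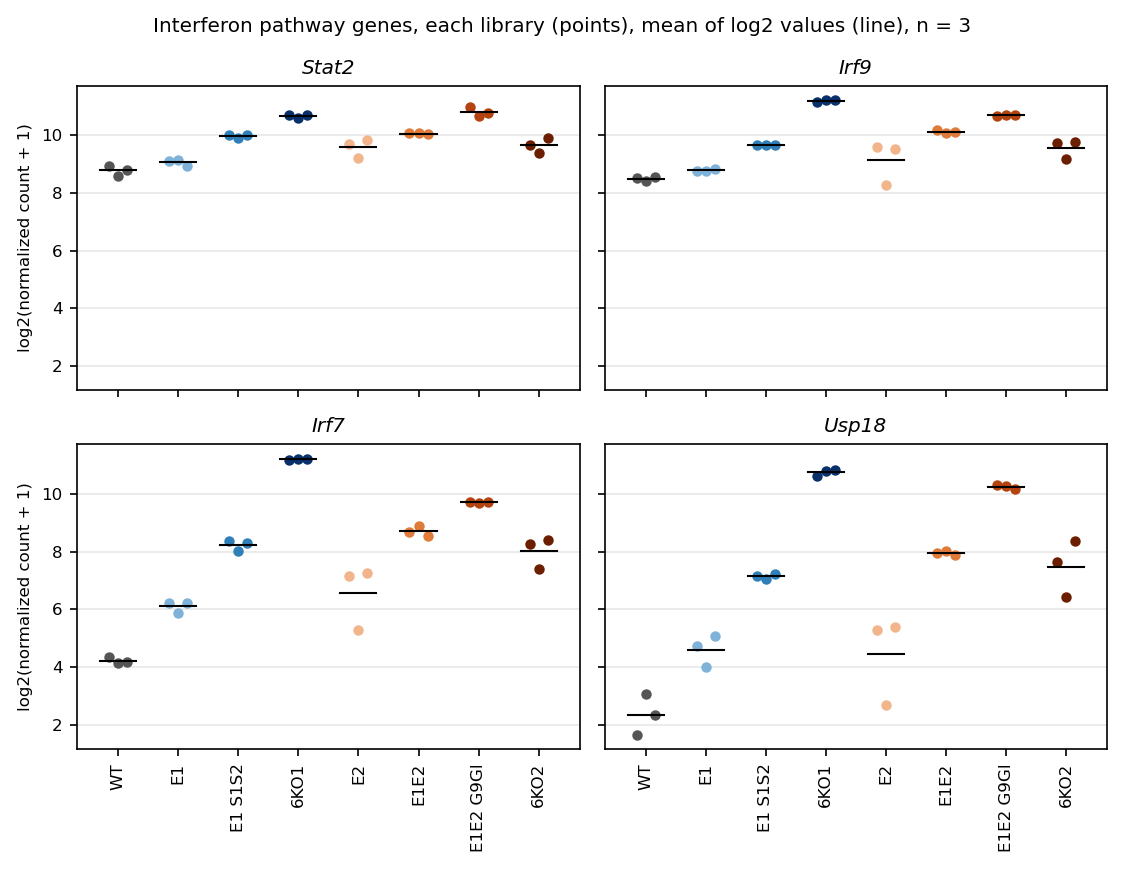
Normalized counts of 4 interferon pathway genes on the log2(value + 1) scale, with 1 point per library and a line at the mean of the log2 values (n = 3). *Irf7* was at 2328 to 2389 in *6KO1* and 822 to 841 in *E1E2 G9Gl*, against 16.4 to 19.2 in WT.

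Of the 8 receptor, kinase and ISGF3 genes given here, 2 rose in *6KO1* and 3 in *E1E2 G9Gl*, beside 20.6% and 16.8% of all genes, and none fell. *Irf9* rose by 2.71 ± 0.20 and 2.19 ± 0.20 and *Stat2* by 1.89 ± 0.13 and 2.04 ± 0.14 in these conditions. Of the 3 factors on the list of those that induce interferon, *Irf1* and *Irf3* were not called in any mutant against WT, with *Irf1* at 0.82 in *6KO1* and at -0.33 in *E1E2 G9Gl*. From *E1E2* to *E1E2 G9Gl*, *Irf1* fell by 1.17 on the log2 scale (adjusted p = 2.3e-08). *Irf7* was called in all 7 mutants, with 19.2, 16.4 and 17.1 in WT, 140.4, 37.7 and 152 in *E2*, and 2328, 2354 and 2389 in *6KO1*. *Irf7* in *E1E2 G9Gl*, at 841, 822 and 834, was below *6KO1* in every library, and from *E1E2* to *E1E2 G9Gl* it differed by 1.00 ± 0.22 without passing the fold change asked for. Of the 4 dampers of interferon signalling, *Irf2*, *Socs1* and *Socs3* were not called in *6KO1* or *E1E2 G9Gl*. *Usp18*, which dampens the interferon receptor, was called in all conditions except *E1* and *E2* and rose by 8.51 ± 0.45 in *6KO1*. All 3 of the other effectors that respond to double-stranded RNA rose in *6KO1* and 1 of them in *E1E2 G9Gl*. *Zbp1* rose over WT in *6KO1* (4.73 ± 0.27) and was lower in *E1E2 G9Gl* than in *E1E2* (-2.92 ± 0.28), while *Adar* rose in both *6KO1* (1.69 ± 0.11) and *E1E2 G9Gl* (1.16 ± 0.11). *Eif2ak2* was at 1.05 in *6KO1* and at 0.98, not called, in *E1E2 G9Gl*.

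Of the 3 neighbours tested beside *Oasl1* and *Oasl2*, 1 rose in *6KO1* (20.6% of all genes did), *1500011B03Rik* by 1.00 ± 0.12. Of the 2 tested beside the other stretch, *Ptpn11* and *Rpl6*, 0 were called against WT, with *Rpl6* at -0.78 in *6KO1*.

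Markers of other cell types also differed between conditions. The summed level of 6 macrophage and leukocyte markers was 92.2 to 109 in WT, 127 to 152 in *6KO2*, 543 to 615 in *6KO1* and 620.4 to 653 in *E1E2 G9Gl*, and between 53.8 and 143 in the other mutants. Of these markers, *Adgre1* had 0 counts in every library, while *Itgam* had 1302 counts in *E1E2 G9Gl* and 206 in *6KO1* against 0 in WT. The *6KO2* libraries held 59 *Itgam* counts. *Ptprc* likewise had 0 counts in WT, against 122 (*E1E2 G9Gl*), 52 (*6KO1*) and 51 (*6KO2*). Different genes made up these sums. *Cd68* had a mean of 492 normalized counts in *6KO1* but 86.1 in *E1E2 G9Gl*, against 98.5 in WT. *Csf1r* was at 6.26 in *6KO1* and 0 in *E1E2 G9Gl*, against 3.64 in WT. The sum of 4 endothelial markers was 11.9 to 14.9 in WT, 121 to 140 in *6KO1*, 67.4 to 87.9 in *E1E2 G9Gl* and 100.3 to 138 in *6KO2*, so it was higher in *6KO2* than in *E1E2 G9Gl*, unlike the *Oas* genes. That of 5 epithelial markers was 30.9 to 50.2 in WT, 423 to 451 in *6KO1*, 255 to 314 in *E1 S1S2*, 218 to 282 in *E2*, 194 to 207 in *E1E2 G9Gl* and 98.3 to 112 in *6KO2*. Most of it was *Krt8*, at 18.1, 25.6 and 31.1 in WT and 411, 420.4 and 436 in *6KO1*, while *Epcam* was at 11.7, 7.30 and 14.1 in WT and at 3.52, 0.870 and 0 in *6KO1*. The part of these markers in the *Oas* values was not tested.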

How the data were processed

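Total RNA of 24 MEF cultures was sequenced in pairs from stranded libraries. Per the labels and the study's methods, the authors trimmed reads with cutadapt 1.8.1, aligned them to GRCm38 with STAR 2.5.2b and counted genes and repeats with TEtranscripts. They deposited raw counts without normalization; the strand setting of the counting is not given in the sources used here. Condition, 4-OHT treatment and replicate came from the sample titles (ctr or oht), read with the study's methods. The separate treatment label was the same for all samples and did not distinguish them. The table held 47937 genes, 1445 repeat elements and 1 malformed entry, left out, and 0 columns had no sample. Here genes were filtered with filterByExpr (18565 kept), scaled with TMM and tested with edgeR 4.0.16 (limma 3.58.1, R 4.3.3), by the two-sided quasi-likelihood test. One model held all 24 libraries, with a coefficient for each condition, and p was adjusted over all tested genes (Benjamini-Hochberg) in each of 15 comparisons. Normalized counts are scaled to the mean effective library of 25312496. SE is the absolute log2 fold change divided by the root of F. Ratios of summed counts have exact binomial 95% intervals. Lengths are unions of exons. The steps were tested on simulated data. DESeq2 1.42.0 and the other alternatives are in the closing section. P-values measure the spread between replicates of 1 clone. Besides the 8 genes, genes of fixed lists (adenylate chain pathway, interferon ligands, receptors, regulators and dampers, double-stranded RNA effectors, H3K9 KMTs, markers), the 3 nearest protein-coding genes on each side and the 10 most similar genes were named. The members and lists were chosen with earlier results of these data known. Some genes of these lists are not reported here.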

Additional observations from a re-analysis of the deposited data

Results flagged for a closer look

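The results below were flagged because an effect differed between clones by a test of the difference itself (edgeR, log2 scale), and are given as values.

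The difference between conditions with and without *Suv39h1* and *Suv39h2* mutation was lower beside *E1E2 G9Gl* than beside *E1*, a comparison chosen after the values were seen. It was -5.89 for *Oas1a*, -3.23 for *Oas1b*, -3.84 for *Oas1c*, -6.31 for *Oas1g*, -8.20 for *Oas2*, -7.64 for *Oas3*, -1.62 for *Oasl1* and -3.03 for *Oasl2*. DESeq2 called the same number, 8 of 8. Among the pathway genes it was -3.76 for *Irf7*, -5.09 for *Usp18*, -2.01 for *Irf9*, -2.05 for *Stat2*, -1.32 for *Socs3*, -1.19 for *Adar* and -1.04 for *Eif2ak2*. *Ifnlr1* was at -6.10, but it had 0 counts in *6KO2* against 52 in *E1E2 G9Gl*, so that value depends on the prior count. The sign was the opposite for *Enpp1* (4.05) and *Pde12* (1.09).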

How the results depend on the processing

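Of the values recomputed under the alternatives, 1431 kept their direction and side of the threshold, 15 fell under it, 9 passed it and 11 changed sign. The number of genes called in *E2* was 5 without *E2* replicate 2, and 5 without replicate 2 of both *E2* and *6KO2* (an alternative chosen after seeing the data). The fall of *Oasl1* from *E1E2* to *E1E2 G9Gl* was not called (0 genes) by DESeq2 or with RLE factors. Leaving out single libraries gave 5 to 6 genes called in *E1*, 3 to 5 in *E2*, 7 to 8 in *6KO2*, 5 to 6 from *E1* to *E1 S1S2*, and 0 to 1 lower from *E1E2* to *E1E2 G9Gl*; the other counts did not move. With only the compared conditions fitted, 4 genes were called in *E1* and 2 in *E2*, and without the filter 8 and 4. In the former fits *Oas1g* in *E1* and *Oas3* in *E2* did not pass the filter and were not tested. *Oas1b* in *E1* was tested there and not called (edgeR adjusted p = 0.0167). Values that were not tested are not among those counted above. Sign changes were all in values that were not called. Over the fits without 1 library, *Oas1a* in *E2* ran from -0.84 to 0.45, *Oas1c* in *E2* from -0.15 to 0.29, and in the comparison of the 4-OHT responses *Oas1g* ran from -0.60 to 0.0047 and *Oas2* from -1.48 to 0.36. In *E2*, *Oas1a* was at 0.45 without *E2* replicate 2 and 0.45 without both replicates 2. The causes were not tested.

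Libraries with the same replicate number did not deviate together (median r 0.0022 over 84 pairs, from -0.20 to 0.16). The fit with a replicate block called the same number of genes in each comparison, 6 in *E1*, 3 in *E2*, 7 in *E1E2* and 8 in *6KO1* among them. At 3 to 45 WT counts per gene, depth limits the fold changes of the 6 *Oas* genes.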
